A study of Mus musculus with 8 samples.

Results

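The genes described are 6 genes of the secretory cells that line the airways of the mouse lung: Scgb1a1, Scgb3a1, Scgb3a2, Cyp2f2, Sec14l3 and Reg3g. They were chosen by gene symbol in the platform annotation, and every probe under such a symbol was taken. This gave 7 probes of 5 genes among the 25697 probes of the array: 1 each for Scgb1a1, Cyp2f2 and Reg3g, and 2 each for Scgb3a1 and Sec14l3. Scgb3a2 was not analysed here. Expression was measured on 8 Illumina bead arrays with RNA from whole lungs of E18.5 embryos (late in gestation, shortly before birth). Wild-type (WT) embryos were of the C57Bl6/J strain, and the mutant embryos carried the SMRTmRID mutation in the same background and are called mRID below. Their mothers ate control chow or, for 2 days from E16.5, a diet with 0.15% propylthiouracil (PTU), a drug that blocks the synthesis of thyroid hormone. The groups are WT on control chow, mRID on control chow, WT with PTU and mRID with PTU, and each was 1 RNA sample hybridised to 2 arrays that the labels call technical replicates. The number of embryos behind each RNA sample was not stated in those labels.

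Club cells and other secretory cells cover the conducting airways, where they secrete small proteins into the airway fluid, break down inhaled chemicals and act as progenitors of other airway cells. They mature late in gestation, and their gene products rise towards birth. Secretoglobins are small secreted proteins: Scgb1a1 (also called CC10 or uteroglobin) is the classic club cell product, and Scgb3a1 and Scgb3a2 are made by airway secretory cells as well, Scgb3a1 mostly in the larger airways. Cyp2f2 is a club cell cytochrome P450 that activates compounds such as naphthalene, Sec14l3 is a lipid-binding protein of the SEC14 family found in airway epithelium, and Reg3g is a secreted C-type lectin that kills Gram-positive bacteria.

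Promoters of 3 members are shown because these genes had the largest differences described below: Scgb3a1 and Reg3g fell most, and Sec14l3 rose where the others did not. Each sequence is the 250 bases before the start site on the gene's strand, 5′ to 3′, from RefSeq on GRCm38.p6. Capitals mark a match to any of 5 motifs searched on both strands: AGGTCA (the core of many nuclear receptor sites), CAAGTG (the NKX2-1 core), TGTTTA (the forkhead core), TTCNNNGAA (the STAT site) and TTGCNNAA (the C/EBP site). A promoter was in the table for 4 of the members, Cyp2f2 being the other one.
Scgb3a1, chr11:49663345-49663594, plus strand: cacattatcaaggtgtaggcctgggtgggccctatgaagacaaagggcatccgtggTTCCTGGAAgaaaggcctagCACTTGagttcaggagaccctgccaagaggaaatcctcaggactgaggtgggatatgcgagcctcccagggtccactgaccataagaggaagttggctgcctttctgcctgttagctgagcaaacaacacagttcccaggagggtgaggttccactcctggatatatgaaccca
Reg3g, chr6:78468875-78469124, minus strand: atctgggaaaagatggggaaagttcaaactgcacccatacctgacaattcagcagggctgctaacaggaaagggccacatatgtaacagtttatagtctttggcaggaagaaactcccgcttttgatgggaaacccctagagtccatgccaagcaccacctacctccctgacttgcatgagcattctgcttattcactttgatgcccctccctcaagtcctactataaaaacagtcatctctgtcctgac
Sec14l3, chr11:4064603-4064852, plus strand: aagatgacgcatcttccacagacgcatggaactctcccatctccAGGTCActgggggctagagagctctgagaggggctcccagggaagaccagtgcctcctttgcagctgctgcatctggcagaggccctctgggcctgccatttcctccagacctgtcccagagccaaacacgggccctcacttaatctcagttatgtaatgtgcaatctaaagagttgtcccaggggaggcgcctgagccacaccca
The Scgb3a1 window held CAAGTG on the opposite strand, its first base at position -174 from the start site, and TTCNNNGAA at position -194. The Sec14l3 window held AGGTCA at position -206, and the Cyp2f2 window held AGGTCA at -221 and CAAGTG at -191. The Reg3g window held none of the motifs. Among 32851 promoter windows of the same length, AGGTCA was in 14.0%, CAAGTG in 11.6%, TGTTTA in 12%, TTCNNNGAA in 7.02% and TTGCNNAA in 9.56%, and no motifs overlapped in the windows shown. A match is a description of the letters and not a bound site.

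Within groups, paired arrays correlated at 0.997, and across groups at 0.989 to 0.994. The median array-to-array standard deviation within groups was 0.0741 (log2). Lung markers were present: the group means of Nkx2-1, the transcription factor of lung epithelium, were 12.1 to 12.3 (log2), and those of the surfactant protein gene Sftpc were 13.6 to 13.7. Detection (p under 0.05) covered 54.7% to 58.8% of the probes, and 14965 probes were detected on both arrays of at least 1 group and were tested. A difference is in log2 units with its standard error (SE) from the model, and a probe is said to have risen or fallen when its Benjamini-Hochberg adjusted p from limma was under 0.05 and the difference was at least 1.5-fold. With 1 RNA sample a group, the p-values measure array error, and they say nothing of the variation between animals. The 4 main comparisons share groups with each other, so they are not independent. In whole-lung RNA, fewer secretory cells and less RNA per cell cannot be told apart.

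Scgb3a1 had the largest difference of the members in mRID against WT on control chow and for PTU in WT. Its main probe (ILMN_2638082) gave log2 signals of 9.71 and 9.76 in WT on control chow, 7.02 and 7.08 in mRID on control chow, 5.64 and 5.33 in WT with PTU, and 5.55 and 5.58 in mRID with PTU, and was detected on all 8 arrays. The WT control arrays were higher than all others, the mRID control arrays lay between them and the PTU arrays, and the arrays of the 2 PTU groups overlapped. On control chow, Scgb3a1 in mRID fell by 2.68 against WT (SE 0.11, 6.42-fold, adjusted p = 2.01e-06), to 15.6% of the WT signal, the largest difference by size of the 14965 probes. In WT, it fell by 4.25 with PTU (SE 0.11, 19.0-fold, adjusted p = 7.6e-09), to 5.26% of the control signal, again the largest of all probes. In mRID, it fell by 1.49 with PTU (2.81-fold, adjusted p = 2.62e-05), and the 2 genotypes with PTU differed by 0.08 (95% interval -0.16 to 0.32, adjusted p = 0.701). The fold in WT depended on how the background was treated and on the constant added to the signal: 10.8-fold with no background correction or from the authors' processed values, and 11.2-fold with an added constant of 50.

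A second Scgb3a1 probe (ILMN_2658200), annotated to another RefSeq transcript, was near background. Its log2 signals were 5.04 and 5.29 in WT on control chow, 4.29 and 4.49 in mRID on control chow, 4.21 and 4.22 in WT with PTU, and 4.22 and 4.38 in mRID with PTU. It was detected on the WT control arrays alone and so entered the tests through that group. The bounds were at least 1.45-fold lower in mRID than in WT on control chow (adjusted p = 0.0047) and at least 1.44-fold lower with PTU in WT (adjusted p = 0.000503). The measured differences of this probe fell under 1.5-fold without background correction, with the authors' processed values and with an added constant of 50, and its adjusted p on control chow was 0.0514 without WT control array B.

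Scgb1a1, whose raw signals of 8434 to 19400 reached towards the array maxima of 20634 to 25120, moved in a narrower range. Its log2 signals were 14.14 and 14.15 in WT on control chow, 13.92 and 13.93 in mRID on control chow, 13.10 and 13.15 in WT with PTU, and 13.73 and 13.76 in mRID with PTU. The WT arrays with PTU were the lowest, and no 2 groups overlapped. In WT, Scgb1a1 fell by 1.02 with PTU (SE 0.08, 2.02-fold, adjusted p = 4.24e-05). With PTU, mRID was 0.62 higher than WT (SE 0.08, 1.54-fold, adjusted p = 0.000706), but this difference was under 1.5-fold with median scaling (0.38) and with the authors' processed values (0.57). On control chow the mRID difference was -0.22 (95% interval -0.40 to -0.03, adjusted p = 0.186), and the PTU difference in mRID was -0.18 (adjusted p = 0.205).

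Cyp2f2 passed the test in 1 of the 6 comparisons of 2 groups, PTU against control chow in WT. Its log2 signals were 11.97 and 12.07 in WT on control chow, 11.66 and 11.57 in mRID on control chow, 11.43 and 11.36 in WT with PTU, and 11.69 and 11.58 in mRID with PTU. The WT control arrays were the highest and the WT arrays with PTU the lowest, while the mRID arrays of both diets overlapped. With PTU in WT it fell by 0.63 (SE 0.09, 1.54-fold, adjusted p = 0.00177), and without WT control array B the difference was -0.57, under the fold threshold. On control chow, the mRID difference of -0.41 (adjusted p = 0.0386) was under 1.5-fold, and in mRID the PTU difference was 0.02 (95% interval -0.19 to 0.22).

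Sec14l3 rose with PTU in mRID. Its probe ILMN_1241255 gave log2 signals of 8.42 and 8.54 in WT on control chow, 8.09 and 8.20 in mRID on control chow, 8.06 and 7.97 in WT with PTU, and 9.24 and 9.22 in mRID with PTU. Its probe ILMN_2810301 gave 8.53 and 8.42, 8.05 and 8.31, 7.92 and 7.68, and 9.11 and 8.90 in the same order of groups. The mRID arrays with PTU were the highest by both probes, and the WT arrays with PTU were the lowest. In mRID, the first probe was higher with PTU by 1.08 (SE 0.09, 2.12-fold, adjusted p = 5.51e-05) and the second by 0.83 (SE 0.12, 1.77-fold, adjusted p = 0.00204). With PTU, mRID stood above WT by 1.21 by either probe (2.32-fold and 2.31-fold, adjusted p = 1.74e-05 and 0.000125). In WT, the second probe fell by 0.68 with PTU (1.6-fold, adjusted p = 0.00714), while the difference of the first, -0.46, had an adjusted p of 0.011 but was smaller than 1.5-fold. The call of the second probe was lost without WT control array A (-0.62, adjusted p = 0.0671) or without WT PTU array B (-0.56, adjusted p = 0.0584).

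Reg3g followed Scgb3a1 in its order of groups except at the bottom. Its log2 signals were 8.89 and 8.96 in WT on control chow, 6.82 and 7.33 in mRID on control chow, 5.71 and 5.88 in WT with PTU, and 5.34 and 5.36 in mRID with PTU, and it was detected on all 8 arrays. No 2 groups overlapped, and mRID with PTU was the lowest. On control chow, Reg3g in mRID fell by 1.85 against WT (SE 0.15, 3.6-fold, adjusted p = 9.38e-05), the fifth largest difference by size of all probes. With PTU it fell by 3.13 in WT (SE 0.15, 8.73-fold, adjusted p = 7.49e-07) and fell by 1.72 in mRID (3.3-fold, adjusted p = 5.32e-05). The value in WT was 5.62-fold with no background correction or from the authors' processed values, and 5.79-fold with an added constant of 50. The genotypes with PTU differed by -0.44 (95% interval -0.77 to -0.12, adjusted p = 0.078).

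**Figure D1:**
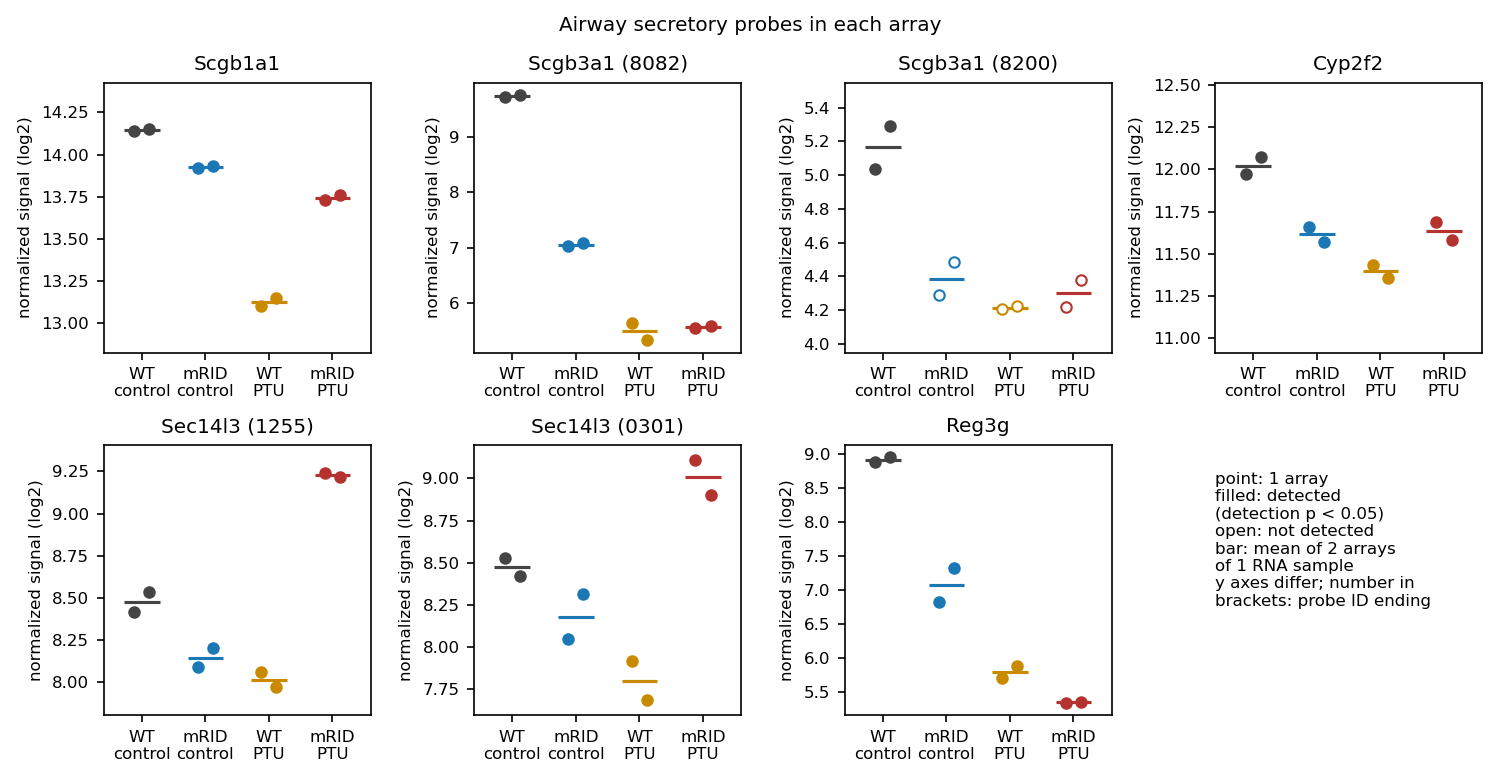
Normalized log2 signal of the 7 probes (y axis, its range differs between panels) in the 4 groups; each point is 1 array, filled where detected, and the bar is the mean of the 2 arrays of the RNA sample. Scgb3a1 and Reg3g are highest in WT on control chow and lowest with PTU, while both Sec14l3 probes are highest in mRID with PTU.

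The dim Scgb3a1 probe passed the filter only through the group where it was high, so the counts that follow are over the 6 probes detected on all 8 arrays. In mRID against WT on control chow 2 of the 6 fell (Scgb3a1 and Reg3g), where 0.989% of all tested probes fell. With PTU in WT 5 of 6 fell, against 2.31% of all probes, the exception being the first Sec14l3 probe. With PTU in mRID, 2 fell (Scgb3a1 and Reg3g), against 0.789% of all probes, and 2 rose (both Sec14l3 probes), against 2.88%. With PTU, mRID was higher than WT for 3 (Scgb1a1 and both Sec14l3 probes), against 3.82% of all probes. Between the 2 groups that differed in both genotype and diet, mRID with PTU against WT on control chow, Scgb3a1 fell 18-fold and Reg3g 11.9-fold (10.5-fold to 10.9-fold, and 6.69-fold to 6.93-fold, without background correction, from the authors' processed values or with an added constant of 50), and the first Sec14l3 probe rose 1.68-fold. Those were 2 lower and 1 higher of 6, against 1.24% and 2.97% of all probes. In mRID on control chow against WT with PTU, Scgb3a1 was 2.96-fold, Reg3g 2.43-fold and Scgb1a1 1.74-fold higher (3 of 6, against 0.695% of all probes).

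**Figure D2:**
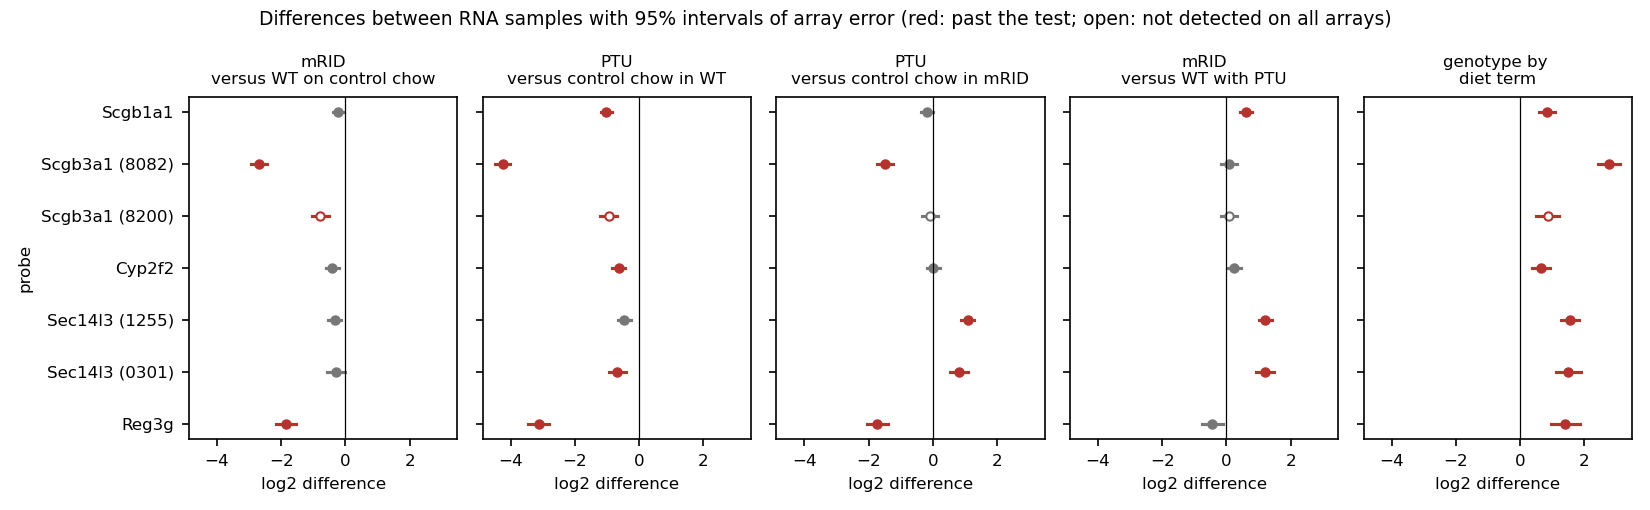
Log2 differences of the 7 probes with their 95% intervals of array error (x axis) in 4 comparisons and in the genotype by diet term; red marks a probe past the test and an open point the probe not detected on all arrays, whose values near background are no measured size. Scgb3a1 lies at -4.25 for PTU in WT and at 0.08 for mRID against WT with PTU.

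The genotype by diet term, the PTU difference in mRID minus that in WT, was positive and past the test for the 6 probes detected on all arrays, against 6.3% of all probes. The dim Scgb3a1 probe was undetected in both mRID groups and in WT with PTU, so no term is given for it. For Scgb3a1 it was 2.76 (SE 0.15, adjusted p = 6.91e-06), with falls of 19.0-fold in WT and 2.81-fold in mRID. For Scgb1a1 it was 0.84 (SE 0.12, adjusted p = 0.00127) and for Reg3g 1.40 (SE 0.21, adjusted p = 0.0016). For the Sec14l3 probes it was 1.55 and 1.5 (adjusted p = 6.36e-05 and 0.000443), and for Cyp2f2 0.64. The Scgb1a1 and Cyp2f2 terms came to 0.56 and 0.55 with median scaling, under the fold threshold.

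Ranked by mean level, the neighbouring groups of Scgb1a1 passed the test in 1 of 3 steps, from mRID with PTU down to WT with PTU. Scgb3a1 and Reg3g separated their 3 highest groups, while their 2 lowest did not differ past the test. For Cyp2f2 no neighbouring pair passed the test.

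When the arrays of an RNA sample were averaged and genotype and diet were fitted to the 4 averages (residual degrees of freedom: 1), limma called 0 of 14965 probes for either term. At an unadjusted p under 0.05 it had 359 of the 14965 probes for genotype, among them the main Scgb3a1 probe and Reg3g. For diet it had 479 of the 14965, among them Scgb1a1, the main Scgb3a1 probe and Reg3g, with the dim Scgb3a1 probe left aside. The lowest adjusted p of a member was that of the diet term of Reg3g (-2.42, SE 0.29, adjusted p = 0.153), followed by Scgb3a1 (-2.87, SE 0.52, adjusted p = 0.494). The error of this fit holds the genotype by diet difference too, so it is not the spread between RNA samples alone. With that error, no member passed the test.

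Of 28 other genes of airway secretory cells, 18 were tested, each by 1 probe, and more of them fell than rose in WT with PTU and in mRID on control chow. With PTU in WT, 8 fell and 0 rose, against 2.43% of all genes falling, and the median was -0.41. Among them Pon1, an esterase, fell 1.16 (2.24-fold), Chad, a leucine-rich repeat protein also made by cartilage, fell 1.10 (2.15-fold), and Lypd2 fell 0.83. On control chow, 3 fell in mRID, against 1.14% of all genes: the keratin gene Krt15 (-1.08, 2.11-fold), Pon1 (-0.76) and Bpifb1, an airway defence protein (-0.69). With PTU in mRID 1 fell (Chad, -0.91), against 0.816% of all genes, and with PTU 1 was higher in mRID than in WT (Retnla, 0.85), against 3.5%. Falls with PTU in mRID and in mRID against WT with PTU covered 0.816% and 0.66% of all genes.

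Enzymes of xenobiotic metabolism, the group to which Cyp2f2 belongs, gave 17 tested genes of 22. With PTU in WT 4 fell, against 2.43% of all genes, and 0 rose. The 4 were Aldh3a1, an aldehyde dehydrogenase (-1.34, 2.53-fold), Gsto1, a glutathione transferase (-1.22), Cyp2b10 (-0.97) and Cyp4b1 (-0.68). In mRID on control chow 2 fell, Gsto1 (-0.93) and Cyp2b10 (-0.67), against 1.14% of all genes. That count was lower without WT control array B or without either mRID control array. With PTU in mRID 1 rose, Cyp1b1 (0.63), against 2.51% of all genes, a count of 0 without mRID PTU array B, and with PTU none of the 17 differed past the test between the genotypes. Of 14 tested antimicrobial genes, which are the group of Reg3g, Saa3, an acute-phase protein, rose with PTU in WT by 1.68 (3.21-fold, 1 gene, against 1.1% of all genes). Ltf, lactoferrin, fell by 0.83 with PTU in WT (1 gene, against 2.43%). On control chow Saa3 rose by 0.87 in mRID (1 gene, against 0.437%), and Ltf and Camp, a cathelicidin, fell by 0.77 and 0.66 (2 genes, against 1.14%). The count of falls was lower without WT control array A or without either mRID control array. Relatives of the members gave 6 tested genes. Of these, Cyp2e1, another cytochrome P450, rose by 0.67 with PTU in WT (1 gene, against 1.1%) and fell by 0.95 with PTU in mRID (1 gene, against 0.816%).

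Of 27 tested transcription factors and Notch signals of airway epithelium, 0 passed the test on control chow or with PTU in WT. Of all genes, 0.437% rose and 1.14% fell in the first comparison, and 1.1% rose and 2.43% fell in the second. Stat3 rose with PTU in mRID by 0.73 (1 gene, against 2.51% of all genes). With PTU, Stat3 was 1.06 higher in mRID than in WT (2.08-fold, 1 gene, against 3.5%). Of 18 general epithelial genes such as Cdh1 and Krt8, and of 16 ciliated cell markers, 0 passed the test in any of the 4 main comparisons. Among all genes, 0.437% to 3.5% were higher and 0.66% to 2.43% lower, so 0 in lists of this size says little. With PTU in mRID, 15 of the 16 ciliated markers differed below 0 (median -0.19), each by less than 1.5-fold. Ciliated markers summed to 6352 to 6362 in mRID with PTU and to 6935 to 7247 in the other groups. The summed level of the epithelial genes was 16961 to 17800 over all arrays, and the medians of that list were -0.04 to 0.06.

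Some markers of basal and squamous epithelium were low in the groups where Scgb3a1 and Reg3g were low. Of 13 tested, 6 fell in mRID on control chow (against 1.14% of all genes), 6 fell with PTU in WT (against 2.43%) and 3 fell with PTU in mRID (against 0.816%, and 1 without background correction, from the authors' processed values or with an added constant of 50). When detection on all 8 arrays was required these counts were 0, since the genes that fell entered the tests through the groups where they were high, so nothing is read from the counts. Lor, a gene of cornified epithelium picked after its values were seen, rose by 1.38 with PTU in WT. With PTU, Lor fell by 1.11 in mRID against WT and Krt14, undetected in WT, was at least 1.39-fold higher, where neither Scgb3a1 nor Reg3g passed the test. Krt13, Krt4 and Psca, genes of squamous epithelium, were 6.35-fold, 4.84-fold and 3.56-fold lower in mRID on control chow. They were detected on 4, 6 and 5 of the 8 arrays. In WT with PTU they were undetected, at least 8.81-fold, 10.2-fold and 9.1-fold lower. The summed level of the list was 1262 to 1263 in WT on control chow, 550 to 556 in mRID on control chow, 634 to 649 in WT with PTU and 459 to 469 in mRID with PTU, highest on the WT control arrays. Lor was the brightest gene of the list in WT with PTU (mean log2 signal 8.44, and 7.06 in WT on control chow) and carried much of the sum there. The order of the lower sums is therefore not read as that of the other genes. Krt5, Krt6a, Dsg3 and Pax9 of this list did not pass the detection filter, and its part in the results of the members was not tested. The summed level of tracheal cartilage markers was 1903 to 2207 over all arrays, with 6 genes tested. Of these, Col2a1 (detected on 1 of 2 mRID arrays) fell by 0.71 in mRID on control chow (1 gene, against 1.14%). That call was lost in 11 of 18 alternatives. These included leaving out WT control array A, either mRID control array or either mRID array with PTU. Sox9 rose by 0.77 with PTU in WT (1 gene, against 1.1%), where 3 of the 6 differed above 0 and 3 below. Acan, Col9a1 and Matn1 of that list did not pass the detection filter. Airway smooth muscle markers summed to 13152 to 13332 in WT on control chow, 10696 to 10948 in mRID on control chow, 10958 to 11475 in WT with PTU and 13078 to 13582 in mRID with PTU. Neutrophil and macrophage markers summed to 10644 to 10762, 8602 to 9521, 8658 to 8871 and 10088 to 11028 in the same order. Both sums were lower in mRID on control chow and in WT with PTU than in the other groups, and their part in the results was not tested. Acta2 carried most of the first sum and Lyz2 most of the second. With PTU in WT, 5 of 12 neutrophil and macrophage markers differed above 0 and 7 below (median -0.07). On control chow 11 of the 12 differed below 0 in mRID. All 9 smooth muscle markers differed below 0 in both comparisons. Type II pneumocyte markers summed to 60299 to 63018 in WT on control chow and to 66563 to 71348 in the other groups, and type I pneumocyte markers to 45424 to 46223 and to 37369 to 43476.

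**Figure D3:**
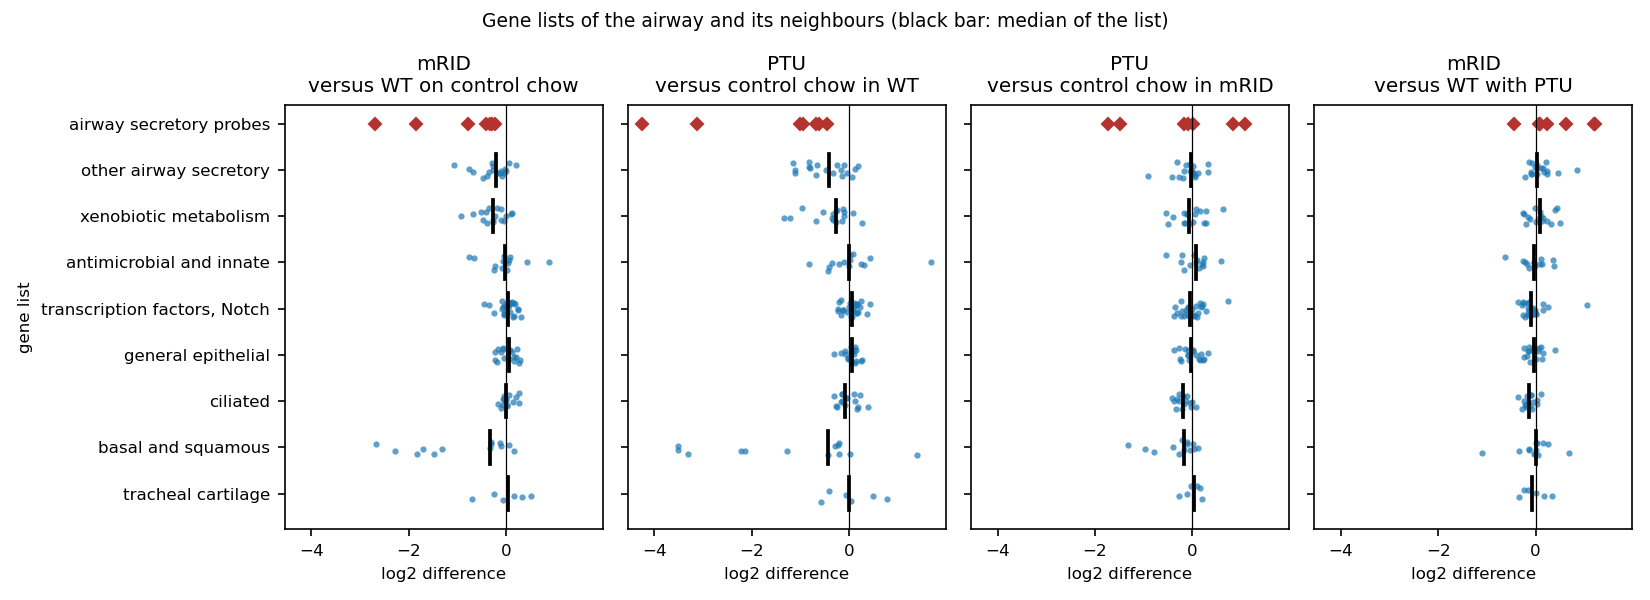
Log2 differences (x axis) of the tested genes of 8 lists, 1 point a gene and a black bar for the list's median, and of the 7 airway secretory probes (red) in 4 comparisons. The basal and squamous genes reach furthest to the left among the lists in the first 3 comparisons, while the general epithelial genes stay near 0. Krt13, Krt4 and Psca were undetected in WT with PTU, so their values for PTU in WT are no measured size. The basal and squamous genes that fell entered the tests through the groups where they were high.

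By the root mean square (RMS) difference of group means centred on their own mean over the 4 RNA samples, the 5 genes of nearest pattern among 10293 were named for each member. For Scgb3a1 they were Krt4 (0.35), Krt13 (0.36), Psca (0.41), Itga9 (0.51) and Paip1 (0.52), and for Reg3g they were Psca (0.22), Krt4 (0.30), Itga9 (0.36), Krt13 (0.36) and Sln (0.55). Krt4, Krt13, Psca and Itga9 were named for both. Krt4, Krt13 and Psca were undetected on both WT arrays with PTU. In mRID with PTU, Krt13 was undetected and Psca was detected on 1 of 2 arrays. The distances of these genes rest partly on background values. Scgb3a1 and Reg3g differed from each other by 0.41. For Scgb1a1 they were Ptprr (0.03), Pnliprp1, Hspb1, Vsnl1 and Stmn2, for Cyp2f2 Serpinh1 (0.02), Ccn5, Gabrp, Sgk1 and Depp1, and for the first Sec14l3 probe Ptprf (0.05), Rgs7bp, Hyal1, Atp8a1 and Marf1. The 2 Sec14l3 probes differed from each other by 0.12. With 4 RNA samples, likeness of pattern is a description of these samples, and a small distance is easier to reach for a gene of small range.

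**Figure D4:**
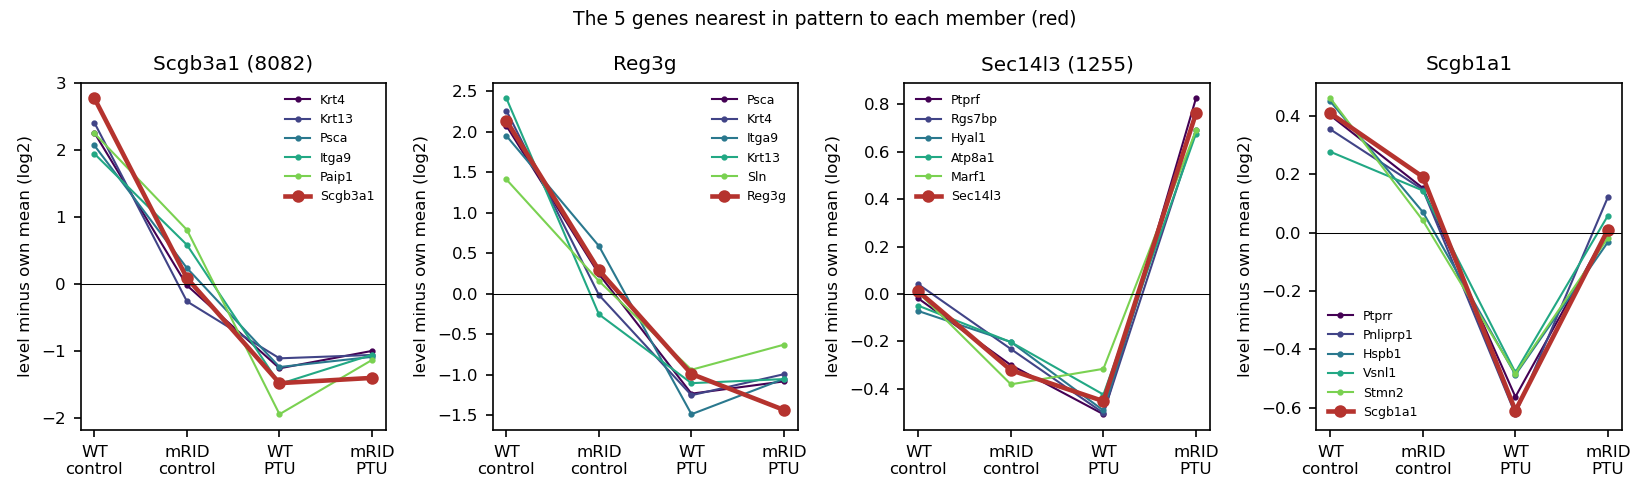
Group means minus each gene's own mean (y axis, log2, ranges differ) in the 4 groups for 4 members in red and the 5 genes nearest to each in pattern. Krt4, Krt13 and Psca are among the 5 nearest to both Scgb3a1 and Reg3g, and were undetected in WT with PTU. In WT on control chow they lie at 2.07 to 2.41, against 2.78 for Scgb3a1 and 2.14 for Reg3g.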

How the data were processed

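Per the labels' protocols, Trizol-extracted total RNA was DNase-treated and made into biotinylated cRNA. GenomeStudio was used, with no version stated, per the submitters' processing notes. Per the file headers, one deposited table gives every probe's average signal on every array, a linear intensity that was not normalized between arrays, beside a detection p-value. Another deposited table holds intensity values of the same arrays, on a linear scale and not centred, with column medians near 52.3 and a normalization method that is not stated. Array columns carry a group name and a letter, so arrays are named by letter.

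From the average signals, limma 3.58.1 in R 4.3.3 corrected the background by the normal-exponential method with detection p-values, added an offset of 16 (which shrinks differences of dim probes), took log2 and quantile normalized. Probes detected (p under 0.05) on the whole of any group were kept (14965 of 25697), and no probe had several symbols, while 1719 had none. All 8 arrays entered 1 model with 4 group means (residual degrees of freedom 4, prior 6.32). Gene lists used 1 probe a gene, the kept probe of highest mean, and from each list up to 4 genes a comparison with the largest differences were named. For a probe undetected in the dimmer group, the fold is a bound, taken against that array's lowest detected signal. The members and lists were chosen with earlier results of these data known. The fit was checked on simulated data. Alternatives were median scaling, no background correction, the authors' processed intensity values, other filters, 1 probe a gene, an offset of 50, a trended variance, no fold threshold, a replicate block and leaving out each array. Same-numbered arrays of different groups deviated together with correlations of -0.0747 to 0.122, so the numbers were taken to pair nothing. A check of the mutated gene is not reported here.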

Additional observations from a re-analysis of the deposited data

Results flagged for a closer look

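By the genotype by diet term of the fit, the PTU difference was not the same in the 2 genotypes for the 6 probes detected on all arrays. The term was 0.84 for Scgb1a1, 2.76 for the main Scgb3a1 probe, 0.64 for Cyp2f2, 1.55 and 1.5 for the Sec14l3 probes and 1.40 for Reg3g (log2, all positive, adjusted p from limma 6.91e-06 to 0.00853). Each term compares 4 RNA samples and rests on array error alone. The group means of Scgb3a1 and Reg3g with PTU (5.35 to 5.79) lay near the lowest detected signals of those arrays (4.54 to 4.69). What that nearness adds to their terms was not tested. Positive terms past the test were also found for 5 of 18 other airway secretory genes and 5 of 17 xenobiotic genes, against 6.11% of all genes. They were found as well for 3 of 9 airway smooth muscle markers and 3 of 12 neutrophil and macrophage markers. Of 14 antimicrobial genes 3 had a positive term and 1 a negative, and of 12 type I pneumocyte markers 2 and 1. General epithelial genes had 1 of 18, and ciliated and type II pneumocyte markers 0 of 16 and 0 of 15. Positive terms were therefore not particular to airway secretory genes. The basal and squamous list is left aside, for the reason given above.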

How the results depend on the processing

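Of 861 recomputed member differences, those of the dim Scgb3a1 probe included, 830 kept their side of the threshold, 25 lost and 6 gained a call. Of the calls, 0 reversed. Some differences near 0 that were not past the test changed sign. The main Scgb3a1 probe gave -0.08 to 0.24 for mRID against WT with PTU when 1 array was left out. The ranges that follow are for probes detected on all 8 arrays when 1 array was left out. With PTU in WT, the Cyp2f2 difference was -0.68 to -0.57 and that of the second Sec14l3 probe -0.79 to -0.56. In mRID with PTU against WT on control chow, the second Sec14l3 probe gave 0.43 to 0.64. These 3 ranges crossed the 1.5-fold threshold. The genotype by diet terms ranged from 0.59 (the lowest for Cyp2f2) to 2.92 (the highest for the main Scgb3a1 probe). With no fold threshold, mRID with PTU against WT on control chow had 7 member probes called in place of 4, the dim Scgb3a1 probe included in both counts. The replicate block, fitted on the authors' processed values, changed no count of member calls against the same values without it. Among all probes, calls per comparison were 144 to 1427, but 61 to 773 with no background correction, 60 to 781 with the authors' processed values, 62 to 799 with an offset of 50, 112 to 972 with 1 probe a gene and 334 to 2167 with no fold threshold. List counts were recomputed after the data were seen: the basal and squamous counts of 6 lower genes became 0 when detection on all 8 arrays was required, since those genes were left out, and the count of 3 for PTU in mRID became 1 with no background correction, the authors' processed values or an offset of 50. The counts without background correction, from the authors' processed values or with an offset of 50 were also 1 in place of 2 for xenobiotic and antimicrobial genes lower in mRID on control chow, and 0 in place of 1 for xenobiotic genes higher with PTU in mRID. The number of arrays and the single RNA sample per group limit every value.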
